A study of Homo sapiens with 6 samples.

Results

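The B-cell receptor chains and proximal kinases comprise 10 genes, and their transcript levels were compared between LP-1/Cfz cells and parental LP-1 cells. The members are the surrogate light chain genes IGLL1 and VPREB1, their relative VPREB3, the signalling chains CD79A and CD79B, the kinases LYN, BLK, SYK and BTK, and the adaptor BLNK. They were taken as every probe set whose annotation names a member and no other gene, which gave 19 of the 54613 probe sets and 10 of the 19775 genes that the array measures through such probe sets. The list was drawn up with the result of this comparison in view, and IGLL1 was named in it for its large fall, so that the values of IGLL1 are given below as a description with no test. LP-1 is an established human multiple myeloma cell line, a malignancy of plasma cells, and LP-1/Cfz is a line selected from it in the proteasome inhibitor carfilzomib and described as resistant to 12 nM of the drug. RNA of LP-1/Cfz cells was taken after 1 week of growth without carfilzomib, alongside parental LP-1 cells that were never selected, with 3 arrays in each group. The study made a single resistant line from LP-1, so that drug resistance and other changes acquired during the selection cannot be told apart.

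A mature B-cell receptor is a membrane immunoglobulin, a heavy chain paired with a kappa or lambda light chain, held together with the CD79A and CD79B heterodimer that carries its signal into the cell. Before a light chain gene has been rearranged, precursor B cells pair the heavy chain with a surrogate light chain, made of the lambda-like protein of IGLL1 and the VpreB protein of VPREB1, to form the pre-B-cell receptor. On engagement, SRC family kinases such as LYN and BLK phosphorylate the CD79 tails, SYK docks there, and BLNK gathers BTK and phospholipase C-gamma so that calcium and NF-kB signalling follow. Plasma cells secrete antibody and usually show little surface receptor, and the surrogate light chain is classically a product of precursor B cells.

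The promoters of 3 members are printed here. Those of IGLL1 and VPREB1 are shown because their products form the surrogate light chain together while the differences of the 2 genes were unlike, and that of BLNK because it was the member that rose most. Each is the 250 bases before the annotated start, 5′ to 3′ on the strand of the gene, from RefSeq on GRCh38.p14. Capitals mark 2 short motifs of B-cell transcription factors on either strand, the EBF core CCCNNGGG and the E-box CANNTG, with overlapping matches counted as 1 place. The windows are chr22:23580291-23580540 on the minus strand for IGLL1, chr22:22244536-22244785 on the plus strand for VPREB1 and chr10:96271570-96271819 on the minus strand for BLNK.
IGLL1: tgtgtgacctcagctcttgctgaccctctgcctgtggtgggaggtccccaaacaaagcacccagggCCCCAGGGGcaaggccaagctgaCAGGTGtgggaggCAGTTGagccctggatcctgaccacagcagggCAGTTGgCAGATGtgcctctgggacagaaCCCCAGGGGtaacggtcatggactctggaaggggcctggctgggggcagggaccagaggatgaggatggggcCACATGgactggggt
VPREB1: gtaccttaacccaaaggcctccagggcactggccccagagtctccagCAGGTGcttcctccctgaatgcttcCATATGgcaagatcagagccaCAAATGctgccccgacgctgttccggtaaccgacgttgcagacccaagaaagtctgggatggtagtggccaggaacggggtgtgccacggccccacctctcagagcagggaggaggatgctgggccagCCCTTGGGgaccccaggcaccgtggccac
BLNK: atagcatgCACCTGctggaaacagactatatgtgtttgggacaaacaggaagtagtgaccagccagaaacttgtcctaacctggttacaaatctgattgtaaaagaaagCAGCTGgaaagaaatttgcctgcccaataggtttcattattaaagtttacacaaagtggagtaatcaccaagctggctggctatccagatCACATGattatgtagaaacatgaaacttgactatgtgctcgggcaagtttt
The window before IGLL1 held 2 places of the EBF core and 5 of the E-box, and that before VPREB1 held 1 and 3. The window before BLNK held 3 E-boxes and 0 EBF cores. The EBF core was found at 1 or more places in 17.04% of 35097 such promoters of the human genome and at 2 or more in 2.616%, while the E-box was found in 61.83% and at 2 or more places in 28.15%. A match to these letters describes the window and is not a binding site. Promoters were matched for 7 of the 10 members, all but CD79B, LYN and BLK. The VPREB3 window held 3 E-boxes and that of CD79A 1, with 0 EBF cores in both. The start listed first for SYK had 0 of either motif, and that for BTK had 1 EBF core and 0 E-boxes. The octamer ATGCAAAT, a classical immunoglobulin promoter element, was found once among these windows, before VPREB3, and is present in 1.627% of all promoters.

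The deposited values were log2 expression values for each probe set, set relative to a reference level whose origin neither the labels nor the methods give. Differences between arrays can therefore be read, but not whether a gene was high or low in these cells or above background, and the values of different probe sets cannot be set against each other. The medians of the arrays over all probe sets lay between 0.0102 and 0.0215 in LP-1/Cfz and between 0.00302 and 0.00613 in LP-1. LP-1/Cfz replicate 3 had the widest spread, its interquartile range being 0.338 where the remaining 5 arrays had 0.230 to 0.264, and values without it are given beside VPREB1, CD79A, CD79B, BTK and BLK. Groups were compared by limma. Its p-values were adjusted by Benjamini-Hochberg across the whole set of probe sets, or across the whole set of genes where each gene was the mean of its probe sets, and a feature was called at an adjusted p under 0.05. Nothing in the sources says that the replicates were separate cultures, so that these p-values measure a spread between arrays that may be technical. The smallest two-sided p of an exact permutation test on 3 LP-1/Cfz and 3 LP-1 arrays is 0.1. Because the RNA came from whole cultures, fewer cells of a type and less RNA per cell cannot be told apart.

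IGLL1 fell 8.46-fold in LP-1/Cfz cells, while neither VPREB1, its partner in the surrogate light chain, nor VPREB3 was called. The IGLL1 probe set 206660_at had log2 values of 0.11, 0.40 and 0.19 in LP-1/Cfz and 3.08, 3.50 and 3.38 in LP-1. The groups did not overlap, and the gap between them was many times the spread of either group. The difference was -3.08 (SE 0.12), the 30th largest fall among the 54613 probe sets, and it lay between -3.20 and -2.99 when each array was left out in turn. IGLL1 rests on this probe set alone.

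VPREB1 had log2 values of 0.17, 0.23 and -0.11 in LP-1/Cfz and 0.27, 0.42 and 0.23 in LP-1. The groups overlapped narrowly, with LP-1/Cfz replicate 3 the lowest array, and the difference was -0.21 with a 95% interval of -0.44 to 0.03 (limma adjusted p = 0.265). Without that array it was -0.10 (limma adjusted p = 0.486). VPREB3, which encodes a VpreB-like protein found with immunoglobulin chains during their assembly in B cells, had values of -0.03, 0.03 and 0.13 in LP-1/Cfz and -0.26, -0.26 and -0.02 in LP-1. The groups overlapped through LP-1 replicate 3, and the difference was 0.22 with a 95% interval of 0.02 to 0.42 (limma adjusted p = 0.159). In the fit over genes VPREB3 was not called (limma adjusted p = 0.103) but passed without LP-1 replicate 3, with a difference of 0.30 (limma adjusted p = 0.0404). The interval of neither gene reached a change of the size seen for IGLL1. Whether either gene stood above background in LP-1 could not be read, so that a fall of that size might not have been visible.

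**Figure D1:**
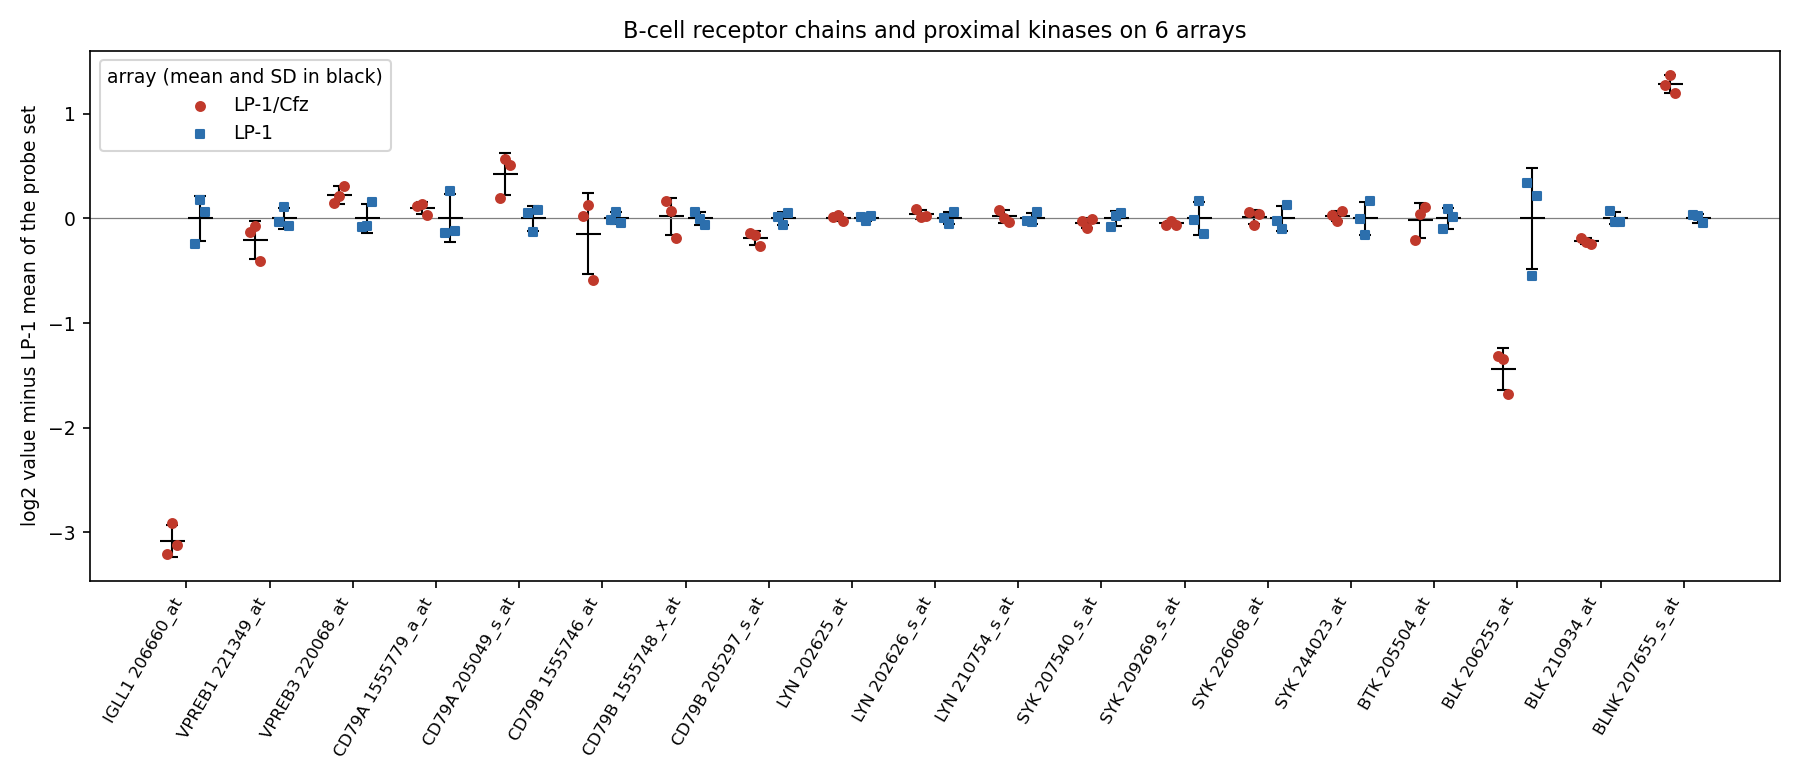
Log2 value of each of the 19 member probe sets on each array, minus the LP-1 mean of that probe set, with LP-1/Cfz arrays as red circles to the left and LP-1 arrays as blue squares to the right. Black bars mark the group mean and its SD (n = 3 arrays). IGLL1 and BLK 206255_at sit far below the LP-1 arrays and BLNK far above them, while LYN and SYK stay close to 0 throughout.

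The CD79 chains showed small differences. CD79A, whose cytoplasmic tail carries an activation motif, was higher in LP-1/Cfz by 1 of its 2 probe sets. Probe set 205049_s_at had values of 0.77, 1.14 and 1.08 in LP-1/Cfz and 0.62, 0.44 and 0.65 in LP-1. The groups did not overlap, though LP-1/Cfz replicate 1 lay near the LP-1 arrays, and the difference was 0.42 (SE 0.11, limma adjusted p = 0.0468), a 1.34-fold rise. The other CD79A probe set, 1555779_a_at, had values of 0.28, 0.30 and 0.20 in LP-1/Cfz and 0.02, 0.43 and 0.04 in LP-1. LP-1 replicate 2 was the highest of the 6 arrays there, and the difference of 0.10 was not called (limma adjusted p = 0.649).
The gene mean of CD79A rose by 0.26 (SE 0.064, limma adjusted p = 0.0290). Neither CD79A call was firm. Without LP-1/Cfz replicate 1 the difference of 205049_s_at was 0.54 (limma adjusted p = 0.0167), and without any of the other 5 arrays the call was lost, with adjusted p between 0.0942 and 0.156. It was 0.38 without LP-1/Cfz replicate 3. The gene mean was likewise called without LP-1/Cfz replicate 1 (limma adjusted p = 0.0232) and not called without any of the other 5 arrays, with adjusted p between 0.0510 and 0.106.

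CD79B, the partner of CD79A in the heterodimer, was not called by any of its 3 probe sets. Their differences lay between -0.19 and 0.018, with limma adjusted p of 0.131 or more, and this range depended on LP-1/Cfz replicate 3. Probe set 205297_s_at was the nearest to a call, with values of -0.04, -0.05 and -0.16 in LP-1/Cfz and 0.12, 0.04 and 0.16 in LP-1. Its groups did not overlap, and its difference of -0.19 had a 95% interval of -0.34 to -0.03. On 1555746_at the widest deviation came from LP-1/Cfz replicate 3, at -0.56, against 0.05 and 0.16 on the other LP-1/Cfz arrays and -0.02 to 0.09 in LP-1. Without that array the difference of 1555746_at turned from -0.15 to 0.075, that of 1555748_x_at was 0.12 and that of 205297_s_at was -0.15, with none called, and the gene mean of CD79B was 0.015 in place of -0.11.

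Among the kinases, BLK fell and the other members were close to level. BLK, a SRC family kinase found mainly in B-lineage cells, had log2 values of 0.45, 0.42 and 0.09 on probe set 206255_at in LP-1/Cfz and 2.11, 1.21 and 1.98 in LP-1. All LP-1 arrays lay above all LP-1/Cfz arrays, although LP-1 replicate 2 was well below the other LP-1 arrays. The difference was -1.44 (SE 0.22, limma adjusted p = 0.00537), a 2.72-fold fall. It stayed called when each array was left out in turn, at -1.72 to -1.27, and was -1.33 without LP-1/Cfz replicate 3.
The second BLK probe set, 210934_at, had values of -0.06, -0.10 and -0.12 in LP-1/Cfz and 0.19, 0.10 and 0.09 in LP-1. Its groups did not overlap either, and the difference of -0.22 fell just short of a call (limma adjusted p = 0.0615). The 2 probe sets thus pointed the same way with very different sizes. The gene mean fell by 0.83 (SE 0.13, limma adjusted p = 0.00345).

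LYN, the SRC family kinase with both activating and inhibitory roles at the receptor, differed by 0.0072, 0.040 and 0.018 on its 3 probe sets. SYK, the kinase recruited to the phosphorylated CD79 tails, differed by -0.049 to 0.025 on its 4 probe sets. BTK, the TEC family kinase that activates phospholipase C-gamma, had values of 0.01, 0.26 and 0.32 in LP-1/Cfz and 0.11, 0.31 and 0.23 in LP-1, a difference of -0.020, or -0.083 without LP-1/Cfz replicate 3. The LP-1/Cfz and LP-1 arrays overlapped on all 8 probe sets of these 3 kinases, and limma adjusted p ran between 0.754 and 0.958. A missed threshold does not show equal levels. The 95% intervals of all 8 lay within -0.25 and 0.23, and changes beyond 1.19-fold down or 1.17-fold up lay outside them. Whether these probe sets read signal above background is not known, so that the intervals bound the array values and not the transcripts.

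BLNK, the adaptor that links SYK to BTK and phospholipase C-gamma, rose 2.43-fold. Its probe set 207655_s_at had log2 values of 1.72, 1.82 and 1.65 in LP-1/Cfz and 0.48, 0.47 and 0.40 in LP-1. Both groups were tight and well apart, with a difference of 1.28 (SE 0.068, limma adjusted p = 3.06e-05), the 42nd largest rise among all probe sets. The difference lay between 1.24 and 1.32 when each array was left out in turn. BLNK, like IGLL1, has 1 probe set of its own on the array.

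Of the 18 member probe sets other than that of IGLL1, 2 were called higher in LP-1/Cfz and 1 lower, and 15 were not called. Over all probe sets, 11.0% were called, 4.25% higher and 6.76% lower. The groups did not overlap on 5 of the 18, against 30.7% of all probe sets. Of the 9 member genes other than IGLL1, CD79A and BLNK were called higher and BLK lower. Of all genes, 16.7% were called, 6.72% higher and 10.0% lower. Groups of 3 of these 9 genes did not overlap, against 35.9% of all genes. The median difference of the 9 genes was -0.013, beside 0.017 for all genes. Since the members were chosen with this comparison known, nothing was read from these shares.

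IGLL1 shares sequence with the constant lambda light chain genes and their relatives, so that probes for them can detect each other, and the immunoglobulin probe sets were examined beside it. None of them showed a fall near that of IGLL1. The 9 probe sets that name IGLC1, a lambda constant gene, and no other gene differed by -0.00030 to 0.44, with 2 of them called higher. The 3 probe sets of IGLL5, the relative of IGLL1 that contains a lambda constant segment, differed by 0.018 to 0.19, with 0 called by limma and 0 at an unadjusted p under 0.05, and that of the pseudogene IGLL3P by -0.0059. Across all 36 lambda probe sets, 2 were called higher and 1 lower, beside 4.25% and 6.76% of all probe sets. The lambda differences lay between -0.46 and 0.62. The 1 lower call, on 211881_x_at for the joining segment IGLJ3, was -0.46 (limma adjusted p = 0.0277).

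**Figure D2:**
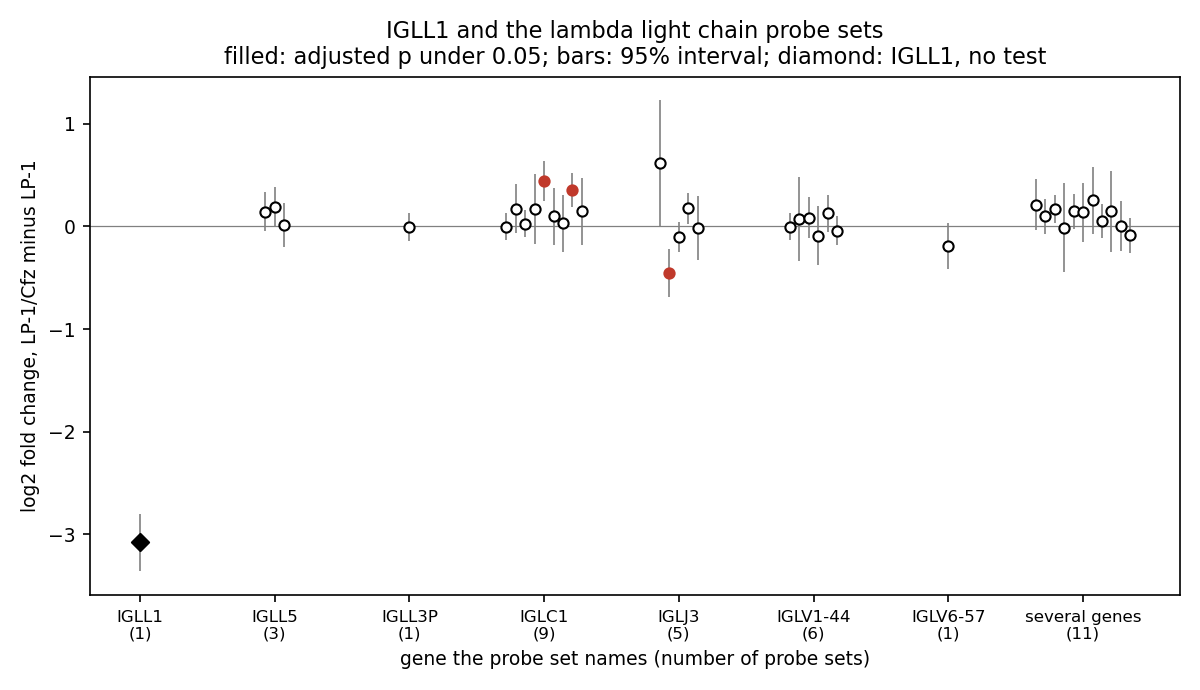
Log2 fold change of LP-1/Cfz over LP-1 for IGLL1 (black diamond, given without a test) and for the 36 lambda light chain probe sets, grouped by the gene they name, with 95% intervals as bars and filled circles for limma adjusted p under 0.05. IGLL1 lies at -3.08 while every lambda probe set lies between -0.46 and 0.62.

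The heavy chain pairs with the surrogate or the mature light chain. It was higher on 7 of 59 probe sets and lower on 0, beside 4.25% and 6.76% of all probe sets. The largest difference was on 217022_s_at, which names IGHA1, IGHA2 and IGH together and so cannot be assigned to a single gene. It had values of 1.80, 1.87 and 1.85 in LP-1/Cfz and 0.75, 0.65 and 0.79 in LP-1, a difference of 1.11 (SE 0.065, limma adjusted p = 4.8e-05). For IGHM, the mu chain of the pre-B-cell receptor, 1 of 5 probe sets was called, 215949_x_at at 0.88 (limma adjusted p = 0.0222), with values of 3.25, 3.52 and 2.91 in LP-1/Cfz and 2.67, 2.05 and 2.32 in LP-1. The other 4 IGHM probe sets differed by -0.043 to 0.10, and the gene mean of 0.21 was not called (limma adjusted p = 0.0577). Of 21 kappa probe sets 0 were called by limma, 3 having an unadjusted p under 0.05, and the 1 probe set of the J chain was not called. In all, 10 immunoglobulin probe sets were called, a number that moved between 5 and 11 as single arrays were left out and was 5 without any of the 3 LP-1 arrays. Cross-hybridisation between these near-identical genes was not tested.

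The genes that act around the members were described from 4 lists, each gene through its mean. Of 100 measured genes, 6 rose and 22 fell in LP-1/Cfz cells, 28.0% in all, beside 6.72% of all genes higher and 10.0% lower. By list, 19.2% of the co-receptors, 11.1% of the other kinases, 40% of the downstream genes and 26.7% of the precursor B-cell genes were called, beside 16.7% of all genes. Because the lists were chosen with earlier results of these data known, nothing was read from these shares. Against a minimum fold change of 1.2, 8 of the 28 kept their call, namely PECAM1, CD81, YES1, MALT1, ID3, ETS1, BACH2 and LEF1.

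Among co-receptors and inhibitory receptors, 1 of 26 measured genes was higher and 4 were lower, with a median of 0.019. PECAM1, an adhesion receptor with inhibitory motifs, fell by 0.87 (SE 0.060, limma adjusted p = 7.16e-05). Its gene means were 0.12, 0.22 and 0.26 in LP-1/Cfz and 1.00, 1.13 and 1.07 in LP-1. CD81, a tetraspanin of the cell membrane, fell by 0.68 (SE 0.047, limma adjusted p = 7.11e-05). CD81 had values of -0.67, -0.69 and -0.62 in LP-1/Cfz and 0.01, 0.03 and 0.04 in LP-1, so that both receptors separated the groups cleanly. The membrane adaptors LAX1 and PAG1, which restrain antigen receptor signalling, fell by 0.48 and 0.32, PAG1 being called on 1 of its 3 probe sets. CR2, a complement receptor of B cells, rose by 0.43 (SE 0.076, limma adjusted p = 0.00669), through 1 of its 2 probe sets. The inhibitory receptor CD22 differed by 0.032 and the phosphatase CD45, encoded by PTPRC, by 0.073, both not called.

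Of 9 other measured kinases of the SRC, TEC and SYK families, 1 was higher and 0 lower, with a median of -0.013. The SRC family kinase YES1 rose by 0.52 (SE 0.060, limma adjusted p = 9.19e-04), with values of 0.57, 0.62 and 0.46 in LP-1/Cfz and 0.00, 0.09 and -0.01 in LP-1. YES1 was called by 2 of its 3 probe sets. FYN, a further SRC family kinase, differed by 0.11 and was not called (limma adjusted p = 0.204). ZAP70 differed by -0.33 and was not called (limma adjusted p = 0.0971), but was called lower without LP-1/Cfz replicate 1 (limma adjusted p = 0.00532).

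Downstream of the receptor, 3 of 35 measured genes were higher and 11 lower, with a median of -0.067. The 14 calls became 6 to 9 when single arrays were left out, with 7 without LP-1/Cfz replicate 1 or 2, 9 without LP-1/Cfz replicate 3 and 6 without any of the LP-1 arrays. MALT1, the protease of the complex that carries the receptor signal to NF-kB, fell by 0.57 (SE 0.053, limma adjusted p = 3.18e-04) and was lower on all 3 of its probe sets. MALT1 had gene means of -0.42, -0.46 and -0.54 in LP-1/Cfz and 0.07, 0.09 and 0.13 in LP-1. RASGRP3, which activates RAS in response to diacylglycerol, fell by 0.52 (SE 0.079, limma adjusted p = 0.00343), resting on 1 of its 2 probe sets, at -1.25 and 0.21. The store-operated calcium channel gene ORAI1 fell by 0.42 and the GTPase gene RAC2 by 0.40.
The 3 higher genes changed little. The calcium release channel gene ITPR2 rose by 0.24, the kinase gene AKT1 by 0.20 and the protein kinase C gene PRKCB, which acts just upstream of NF-kB, by 0.17. By probe set, ITPR2 was called on 1 of 4 and PRKCB on 1 of 6. The only probe set of AKT1 was not called in the fit over probe sets (limma adjusted p = 0.101). AKT1 and PRKCB lost their call when any single array was left out, with limma adjusted p of 0.0502 to 0.151 and 0.0640 to 0.149, and ITPR2 lost it without LP-1/Cfz replicate 1 or LP-1 replicate 1, with limma adjusted p of 0.0620 and 0.0761. Of the lower genes, NFATC3, DGKZ and VAV1 also lost their call whichever array was left out, PLCG1 and CBLB in 5 of 6 fits and PIK3R1 in 2. PLCG2, the phospholipase that BTK activates in B cells, differed by 0.16 and was not called (limma adjusted p = 0.127). Of its 4 probe sets 1 was called higher, with differences of 0.037 to 0.36 among them. The gene mean of PLCG2 passed under 2 of the 7 alternatives that kept all arrays.

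**Figure D3:**
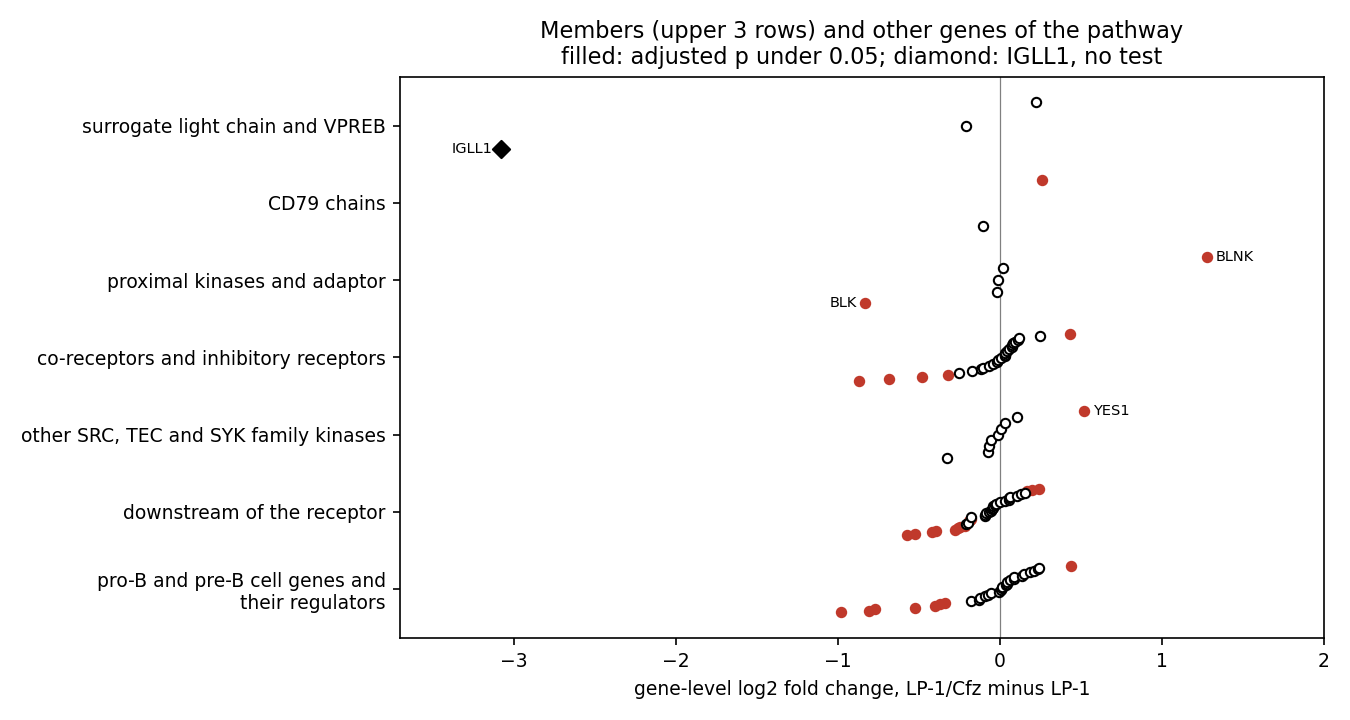
Gene-level log2 fold change of LP-1/Cfz over LP-1 for the members in the upper 3 rows and for the genes of 4 further lists below them, 1 point per measured gene, spread upwards by size within a row. Filled red points had a limma adjusted p under 0.05, open points did not, and the black diamond is IGLL1, given without a test. IGLL1 at -3.08 and BLNK at 1.28 lie outside the range of all 4 lists, which runs between -0.98 and 0.52.

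Of the 30 genes of the precursor B-cell programme and its regulators, 1 was higher and 7 were lower, with a median of 0.0084. ID3, an inhibitor of E-box binding proteins, fell by 0.98 (SE 0.080, limma adjusted p = 1.73e-04), with values of -1.46, -1.44 and -1.69 in LP-1/Cfz and -0.52, -0.65 and -0.48 in LP-1. Its relative ID2 went the other way and rose by 0.44 (SE 0.079, limma adjusted p = 0.00740). The transcription factors ETS1, BACH2 and LEF1 fell by 0.81, 0.77 and 0.52. EBF1, TCF3, PAX5 and IKZF1 lie outside the rule for named genes and were chosen with their values known, because they act on the surrogate light chain genes in precursor B cells, and none was called. EBF1 differed by -0.13, TCF3, which encodes the E2A proteins, by 0.045, PAX5 by 0.015 and IKZF1 by -0.075. EBF1 was nonetheless lower on 1 of its 4 probe sets, 227646_at, at -0.38 (limma adjusted p = 0.00769). The other genes of the list that were called lower were IKZF3, SOX4 and BCL11A, at -0.40, -0.37 and -0.34. IKZF3 was lower on all 3 of its probe sets, and its gene mean had a limma adjusted p of 0.00140. The precursor B-cell enzyme gene DNTT, which lies beside BLNK, differed by 0.090 and RAG1 by 0.090, both not called.

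Markers of plasma cells and of other cell types were set beside these results, as mean values of each list relative to the LP-1 mean. Of all genes, 6.72% were called higher and 10.0% lower. The 11 plasma cell markers averaged -0.17 to -0.13 in LP-1/Cfz and -0.016 to 0.0099 in LP-1, with 3 higher and 2 lower. Their median difference was 0.084, so that most of them did not share the lower average. The ectoenzyme CD38 fell by 1.07 and SLAMF7 by 2.17, while MZB1, SDC1 and TNFRSF17 rose by 0.39, 0.38 and 0.27. The 8 measured mature B-cell markers averaged -0.17 to -0.11 in LP-1/Cfz and -0.027 to 0.031 in LP-1. Their median difference was 0.027, with CR2 called higher and CIITA and BACH2 lower. CIITA, the activator of MHC class II genes, fell by 1.13 (SE 0.062, limma adjusted p = 2.26e-05). It was lower on 2 of its 3 probe sets, which differed by -2.52 to -0.082. The B-cell marker MS4A1 differed by 0.24 and was not called (limma adjusted p = 0.153). The 10 T and NK cell markers averaged -0.11 to 0.0045 in LP-1/Cfz and -0.016 to 0.0091 in LP-1. Of these, NCAM1 was lower by 0.53 and GNLY by 0.30, and which cells these transcripts came from was not tested. NCAM1 was lower on 3 of its 7 probe sets, which differed by -1.96 to 0.11. The 6 measured myeloid markers averaged -0.11 to 0.046 in LP-1/Cfz and -0.018 to 0.0094 in LP-1, with 0 of 6 called by limma and 1 at an unadjusted p under 0.05. Because the values are centred, whether any marker was absent could not be read, and the part of other cells in the members' differences was not tested.

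The surroundings of the members on the chromosomes were read from the gene order of RefSeq, 5 measured genes on each side. The counts below stand beside 6.72% of all genes called higher and 10.0% called lower, and no regional change was tested. Around IGLL1 on chromosome 22, 3 of 10 neighbours were lower and 0 higher, with differences of -0.36 to 0.22. RAB36 fell by 0.28, BCR by 0.17 and ZNF70 by 0.36, all much smaller than the fall of IGLL1 itself. VPREB3 was among these neighbours, separated from IGLL1 by 4 measured genes, and was not called. BLK on chromosome 8 had 4 lower neighbours of 10, MTMR9 at -0.39, TDH-AS1 at -0.62, GATA4 at -0.52 and CTSB at -0.37, and 0 higher. Beside BLNK on chromosome 10, CCNJ fell by 1.38 (SE 0.083, limma adjusted p = 3.67e-05) and ZNF518A by 0.39, opposite to the rise of BLNK, and 0 of its 10 neighbours were higher. Around CD79A on chromosome 19, 0 of 10 neighbours were called by limma, 3 having an unadjusted p under 0.05. Among the uncalled kinases, BTK on chromosome X stood among 4 higher neighbours of 10, with GLA the highest at 0.43, and SYK on chromosome 9 had 1 higher and 3 lower.

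**Figure D4:**
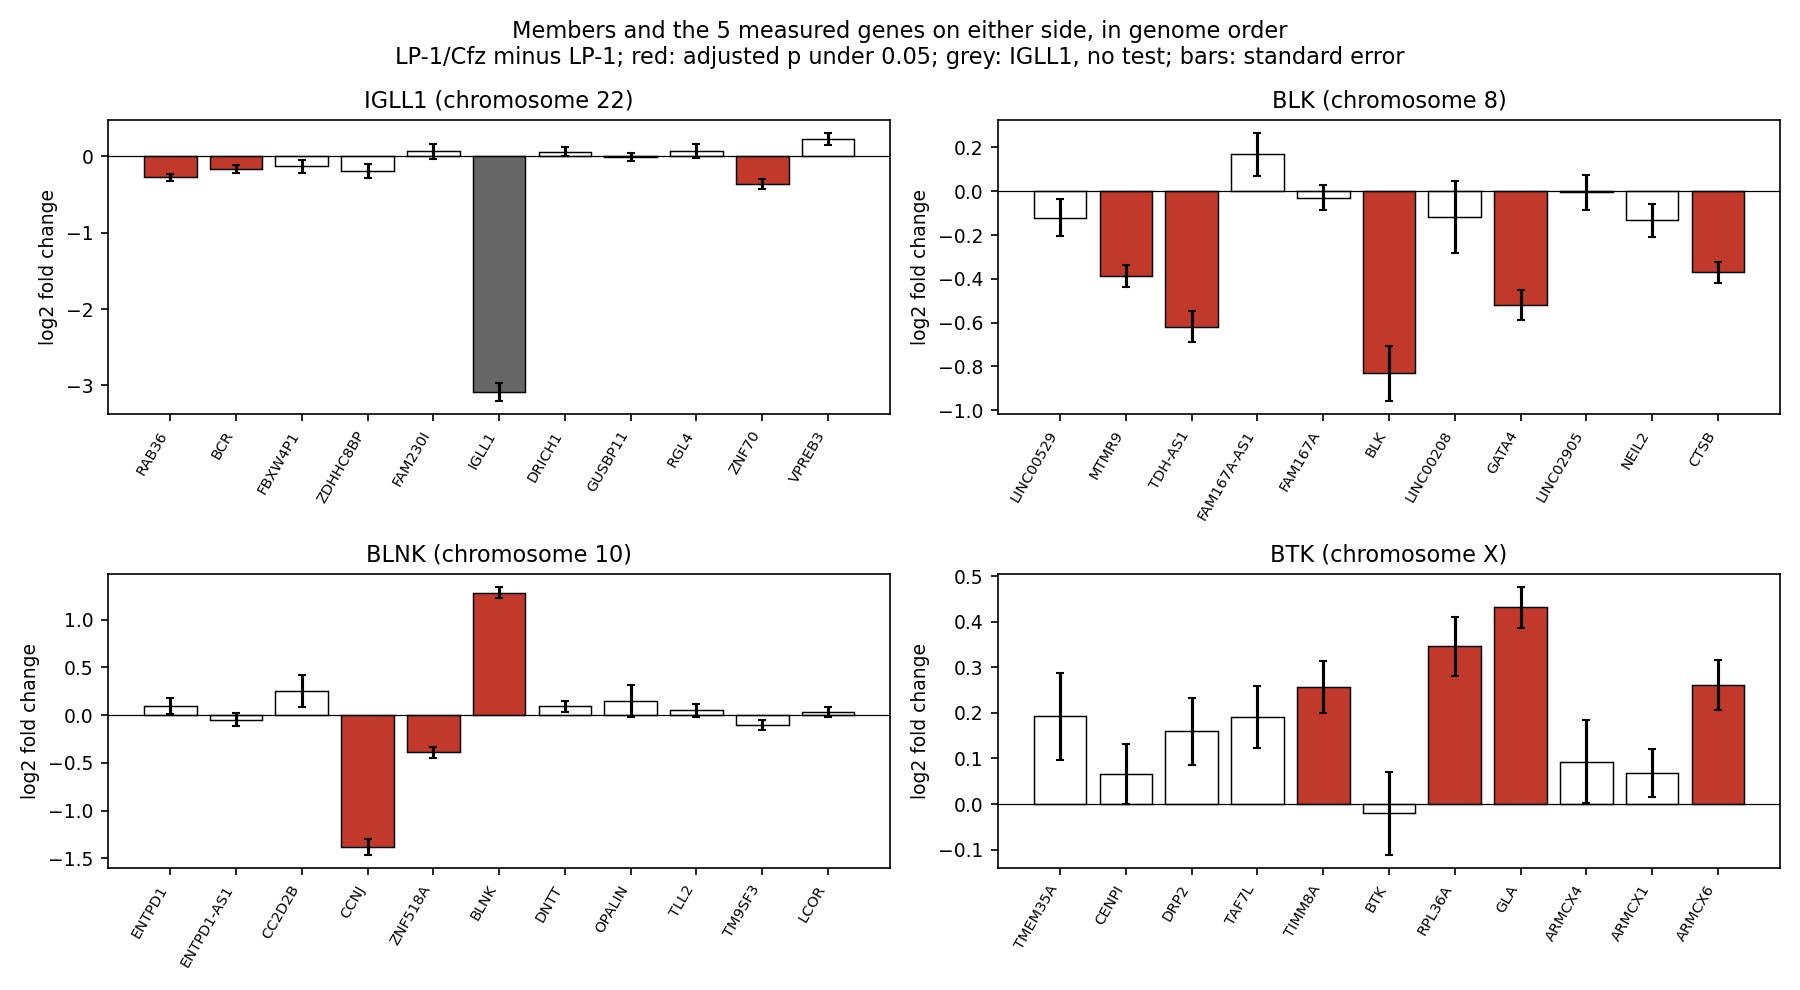
Gene-level log2 fold change of LP-1/Cfz over LP-1 for IGLL1, BLK, BLNK and BTK and the 5 measured genes on either side of each, in genome order, with bars of 1 standard error and a separate scale in each panel. Red columns had a limma adjusted p under 0.05 and the grey column is IGLL1, given without a test. IGLL1 at -3.08 lies far below its neighbours, BLNK at 1.28 is the only red column above 0 in its panel, and BLK lies among smaller falls.

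The probe sets whose pattern over the 6 arrays was most like that of IGLL1 were found by the root mean square difference of their values, each taken relative to its LP-1 mean. The nearest were LRRN1 226884_at at 0.155, HLA-DMB 203932_at at 0.156, GPD2 225447_at at 0.169, HLA-DRB1 208306_x_at at 0.172 and IGFBP7 201162_at at 0.172. Their differences between LP-1/Cfz and LP-1 were -3.19, -3.11, -2.94, -3.04 and -3.11, so that each fell by about as much as IGLL1. They were picked for this likeness, and their falls are a description. HLA-DRB1 belongs to a family of near-identical genes, so that its probe set may read others of that family.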

How the data were processed

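Total RNA from 3 LP-1/Cfz and 3 LP-1 samples was hybridised by the study to Affymetrix human U133 Plus 2.0 GeneChips. The authors deposited log2 expression values per probe set, for which the submitters' processing notes name RMA without a version. The scale is taken as log2 because RMA returns it, the origin of the centring is not stated in the labels or the methods, and the serum content of the medium differs between the labels and the methods. Of 54613 probe sets, 41091 name 1 gene, 1801 several and 11721 none in the platform annotation.

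LP-1/Cfz and LP-1 were compared with lmFit and eBayes of limma 3.58.1 in R 4.3.3, without covariates. P-values were adjusted by Benjamini-Hochberg across 54613 probe sets, and in a second fit across 19775 genes, each the mean of its single-gene probe sets, with features called at an adjusted p under 0.05. The scripts were tested on simulated data. In the fit over probe sets, 0% of simulated 1.2-fold changes and 52% of 1.5-fold changes were recovered. In the fit over genes 28% and 82% were, so that small changes could go uncalled. Gene order and promoters came from RefSeq on GRCh38.p14, where 19734 of 19775 genes matched. Named were all members, up to 4 called genes in each direction from each list, the called genes among the neighbours of called members, and the 5 probe sets most like IGLL1. Genes named outside this rule, with their values known, were EBF1, TCF3, PAX5, IKZF1, IKZF3, SOX4, BCL11A, DNTT and RAG1. The same holds for CD22, PTPRC, FYN, ZAP70, PLCG2, MS4A1, GLA and the further downstream genes that lost their call. Members and lists were chosen with earlier results of these data known. Alternatives were leaving out each array, the replicate number as a block, other normalization, centring, array weights and prior, a minimum fold change, and other choices of probe sets. The number of arrays limits the precision. Nothing in the labels says that the replicate numbers pair the samples, and the main fit treated them as unpaired.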

Additional observations from a re-analysis of the deposited data

How the results depend on the processing

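Over all results and alternatives examined, 1556 of 1677 values kept their side of the threshold, 98 lost a call, 23 gained one, and 0 called values changed direction. Of 1186 values called in neither fit, 93 had the other sign. BLK 206255_at and BLNK kept their call under every alternative, and IGLL1 stayed between -3.20 and -2.99. The count of called member probe sets, 4, was 3 to 4 when each array was left out and 3 to 5 otherwise. That of member genes, 4, was 3 to 4. All member counts here include IGLL1, which was named for its fall and is no test. Without IGLL1, 2 member probe sets and 2 member genes were higher in the main fit and 1 of each was lower. Of all probe sets 11.0% were called, and of all genes 16.7%. The CD79A probe set 205049_s_at was also lost with the replicate block (adjusted p = 0.0715), array weights (0.0744), the robust prior (0.0509) and the minimum fold change of 1.2 (1.0), and BLK 210934_at passed after a second quantile normalization (0.0491) and with single-gene probe sets only (0.0463). Called immunoglobulin probe sets, 10, became 16 after a second quantile normalization, 1 against the minimum fold change and 6 with single-gene probe sets only, where fewer are tested, and were 5 to 11 when each array was left out. Called pathway genes, 28, became 8 against the minimum fold change and were 20 to 26 when each array was left out. Apart from fewer tests, the cause was not tested. Deviations of the samples of one replicate number correlated with r of -0.049, 0.13 and -0.0056. With 3 arrays in each group these values cannot settle whether the samples were paired. With the replicate number as a block, 4544 probe sets in place of 6014 were called, with 3 member probe sets, 4 member genes, 10 immunoglobulin probe sets and 20 pathway genes among the calls, and not every array correlated best with its own number. Signal over background could not be read from centred values, so that genes near the detection limit could not be set aside.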

Other observations

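Some kappa light chain probe sets stood well above all other arrays on LP-1/Cfz replicate 1. On 5 of the 21 kappa probe sets this array lay more than 1 log2 unit above all 5 other arrays, and these were the only 5 of the 54613 probe sets for which that held on this array. On 211643_x_at, which names IGK and IGKC, it had a value of -3.64 while the highest other array had -6.27, a gap of 2.63. The gaps of the other 4 were 1.43 on 214669_x_at, 1.25 on 221671_x_at, 1.25 on 221651_x_at and 1.10 on 224795_x_at. The remaining LP-1/Cfz arrays also lay above all LP-1 arrays on 211643_x_at, 221671_x_at, 221651_x_at and 224795_x_at, while the groups overlapped on 214669_x_at. On 224795_x_at the values were -3.62, -4.72 and -5.30 in LP-1/Cfz and -5.61, -5.74 and -5.58 in LP-1. On the other 5 arrays, 0 probe sets exceeded all remaining arrays by more than 1 log2 unit. The cause was not tested, and none of these probe sets was called between LP-1/Cfz and LP-1, with limma adjusted p of 0.0999 to 0.243. All 5 name the kappa constant gene IGKC, so that they are not separate observations.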
